A study of Mus musculus with 12 samples.

Results

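Ventricular myocytes (VMs) sorted from hearts of Ncam-1-/- mice (KO) were compared with VMs sorted from wild-type hearts (WT), and the 6 VM libraries, 3 per genotype, were chosen by their sample titles from the 12 libraries of the series. The other 6 libraries came from Purkinje cells (PCs), the working cells of the fast ventricular conduction network. All mice were adult males, and all carried Cntn2-EGFP, a reporter transgene on a bacterial artificial chromosome that marks PCs with green fluorescence. The Ncam-1-/- line was kept on C57BL/6, the Cntn2-EGFP line on CD1, and the lines were crossed for the study, so the mice of both genotypes had mixed parentage. Hearts were dissociated by enzyme perfusion, and the cells were loaded with 50 nM TMRM, a red dye taken up by polarised mitochondria, for 15 min. VMs were collected as red cells without green fluorescence and PCs as red cells with it. RNA was amplified with a low-input kit and sequenced as 50-base paired reads, and the deposited values are raw read counts per gene. Whether each library came from 1 animal or from pooled cells, and whether VMs and PCs of one number came from the same heart, is not given in the sources used here. The p-values therefore measure only the spread between these libraries.

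NCAM-1 is a cell surface adhesion molecule of the immunoglobulin superfamily that binds other NCAM-1 molecules and heparan sulphate proteoglycans. It signals through FGF receptors and the kinase Fyn, and polysialic acid on its extracellular part weakens adhesion. In the heart it is known as a molecule of the conduction system. VMs are the contractile cells of the ventricular wall, and they rely on voltage-gated sodium and calcium channels, on calcium release and reuptake by the sarcoplasmic reticulum, and on mitochondria fed mainly by fatty acids.

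*Ncam1* (chromosome 9, 49502136 to 49798925, minus strand, GRCm38) was hardly detected in VMs of either genotype. The raw counts were 6, 0 and 9 in the WT VM libraries and 0, 0 and 0 in the KO VM libraries. WT PCs held 83, 34 and 116 counts and KO PCs 0, 1 and 1. The targeted gene thus separated the genotypes clearly in PCs, whereas in VMs 1 of the 3 WT libraries had no *Ncam1* count either, and its mean of 2.05 normalized counts was below the level of 5 needed for testing. Normalized counts were raw counts scaled by edgeR's trimmed mean of M-values (TMM) factors to a common library size.

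Gene counts summed to 14873649 to 22156799 in KO VMs and 22735461 to 29886097 in WT VMs, of which 85.8 to 88.2% fell on genes of the mitochondrial genome. Outside that genome 2115665 to 2622827 counts remained in KO VMs and 3124490 to 3986000 in WT VMs. Depth thus differed with genotype without overlap. With the counts of every library thinned to the smallest, 3 of the 4 genes named below as changed passed the adjusted threshold (edgeR) and *Nedd1* did not. All 8 cardiomyocyte markers were abundant in every library, and their summed normalized count was 204400, 206900 and 194400 in WT VMs 1 to 3 and 248000, 201100 and 231300 in KO VMs 1 to 3. KO VM replicate 1 stood apart: its median Spearman correlation with the other 5 libraries was 0.940 against 0.953 to 0.960 for the rest. It also held the lowest sums of fibroblast markers (94.8, against 297 to 535.5 in the other 5 libraries), endothelial markers (156 against 478 to 946) and macrophage markers (18.4 against 89.5 to 189). WT VM replicate 1 held the highest of these sums (535.5, 946 and 189) and the highest sum of atrial markers (384.5). Most class counts below are followed by their values without KO VM replicate 1. WT VM replicate 1 stays in those fits, so they do not cover its part in the values. In bulk libraries, fewer cells of a type and less RNA per cell cannot be told apart.

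**Figure D1:**
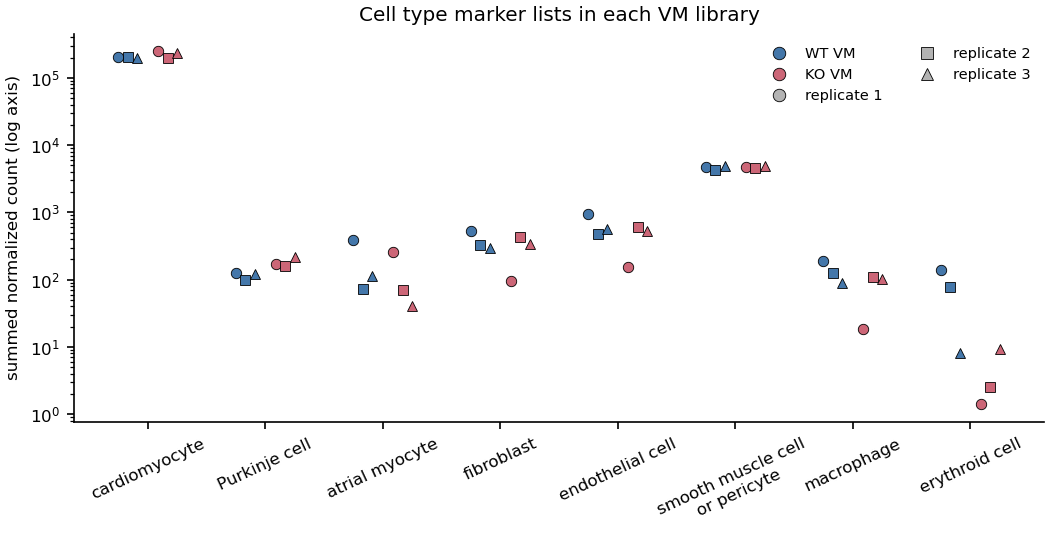
Summed normalized count (log axis) of the marker list of each cell type in the 3 WT and 3 KO VM libraries, 1 point per library. Cardiomyocyte sums lie near 200000 in every library, the fibroblast, endothelial and macrophage sums are lowest in KO VM replicate 1, and the Purkinje sums of the KO libraries (159 to 214) lie above those of the WT libraries (98.8 to 125).

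The knockout was accompanied by few detectable changes in VMs. Of 10852 genes with a mean above 5 normalized counts, 4 differed at an adjusted p-value under 0.05 (edgeR quasi-likelihood F-test, p-values adjusted by Benjamini-Hochberg), which is 0.0369% of the genes tested. *Tmprss13* was the 1 gene that rose (0.00921% of those tested), and *Plet1os*, *Scn4b* and *Nedd1* fell (0.0276%). At an unadjusted p-value under 0.05 there were 555 genes, 5.11% of those tested, with 237 higher (2.18%) and 318 lower (2.93%) in KO. The expected number under no difference at all is 542.6, so the genes named below by an unadjusted p-value only are a description of where the smallest p-values lay. The KO and WT libraries did not overlap for 1046 genes (9.64%), 497 of them higher (4.58%) and 549 lower (5.06%) in KO. Without KO VM replicate 1, 3 genes passed the adjusted threshold and 427 had an unadjusted p-value under 0.05, 265 of them among the 555.

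**Figure D2:**
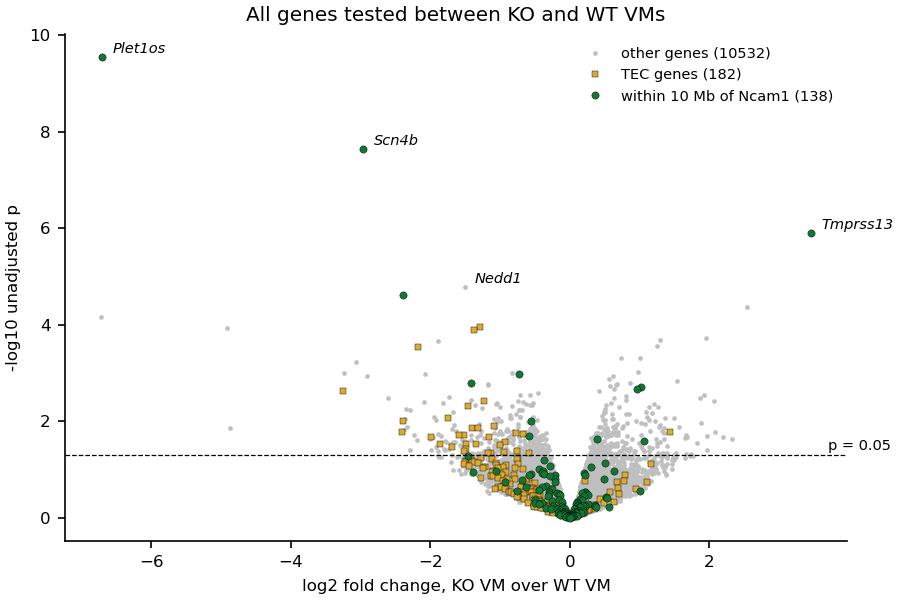
Fitted log2 fold change (KO VM over WT VM) against −log10 of the unadjusted p-value for the 10852 genes tested, 1 point per gene. *Plet1os*, *Scn4b* and *Tmprss13*, all within 10 Mb of *Ncam1*, stand apart from the rest, and the points of the 182 genes of the annotation class TEC lie mostly on the left.

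*Scn4b* encodes the β4 subunit of voltage-gated sodium channels, an auxiliary subunit that shapes channel gating and resurgent sodium current. It lies on chromosome 9 (45138395 to 45154152, plus strand, GRCm38) and is protein-coding. Its normalized counts were 173, 125 and 227 in WT VMs 1 to 3 and 11.3, 24.4 and 30.1 in KO VMs 1 to 3. Every KO library was thus far below every WT library. The mean fell from 175 ± 51.0 to 21.9 ± 9.63 (SD, n = 3), a log2 fold change of -2.96 (SE 0.30) or 7.78-fold. The adjusted p-value was 1.23e-04 (edgeR, adjusted over all genes), and *Scn4b* passed the threshold under all 17 alternatives tried, with log2 fold changes from -3.25 to -2.68. Without KO VM replicate 1 the log2 fold change was -2.68.

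*Plet1os* is an antisense transcript on the minus strand of chromosome 9 (50488795 to 50507823) that overlaps *Plet1* on the other strand. No library held more than 6 counts of *Plet1*, while strand use in counting is not given in the sources used here, so reads of the pair cannot be told apart. Its normalized counts were 109, 86.6 and 111 in WT VMs 1 to 3 and 0, 0 and 2.32 in KO VMs 1 to 3. With 358 raw counts over the WT libraries and 2 over the KO libraries, the ratio of WT to KO was 121 (95% exact interval 33.2 to 1001, counting error only). The adjusted p-value was 3.01e-06 (edgeR, adjusted over all genes). It passed under 16 of the 17 alternatives and had an adjusted p-value of 0.0859 when all 12 libraries were fitted together.

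*Tmprss13* encodes a transmembrane serine protease and lies on chromosome 9 (45319100 to 45347581, plus strand). Its normalized counts were 5.63, 4.71 and 1.48 in WT VMs 1 to 3 and 43.8, 47.5 and 37.05 in KO VMs 1 to 3. The groups were well separated although the counts were low. The mean rose from 3.94 ± 2.18 to 42.8 ± 5.31 (SD, n = 3), a log2 fold change of 3.46 (SE 0.47). The adjusted p-value was 0.00455 (edgeR, adjusted over all genes), and it passed under 14 of the 17 alternatives, the exceptions being limma voom, the fit of all 12 libraries and the fit without KO VM replicate 2.

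*Nedd1* encodes a protein that recruits γ-tubulin ring complexes to centrosomes and lies on chromosome 10 (92684746 to 92722420, minus strand). Its normalized counts were 133, 207 and 193 in WT VMs 1 to 3 and 38.2, 83.5 and 63.7 in KO VMs 1 to 3. The groups did not overlap. The mean fell from 178 ± 39.2 to 61.8 ± 22.7 (SD, n = 3), a log2 fold change of -1.51 (SE 0.26), with an adjusted p-value of 0.0449 (edgeR, adjusted over all genes). This call was close to the threshold: it was lost under 7 of the 17 alternatives, among them the fits without KO VM replicate 1, 2 or 3 and without WT VM replicate 2 or 3, while the log2 fold change stayed between -1.78 and -1.27.

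**Figure D3:**
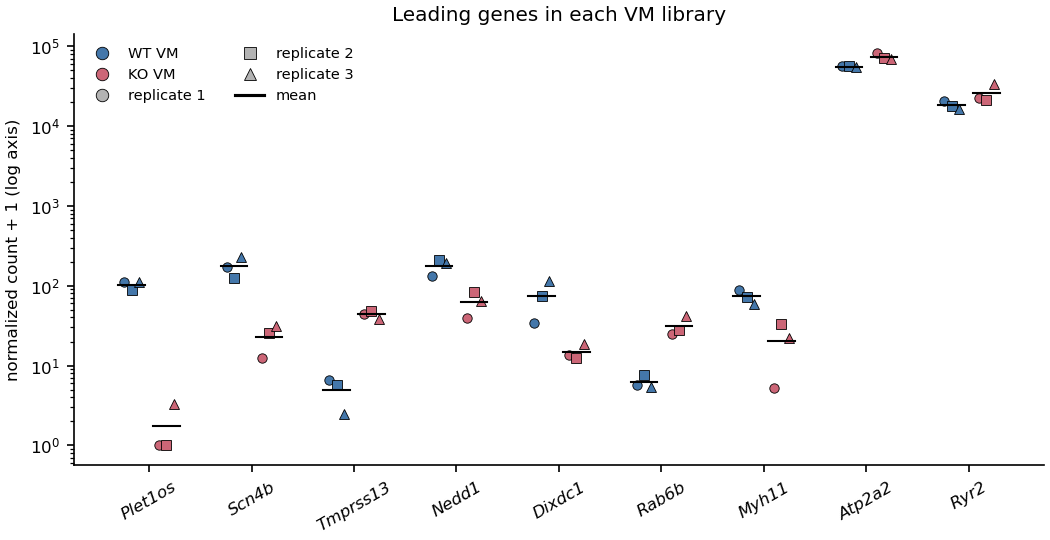
Normalized count plus 1 (log axis) of 9 genes in each VM library, with 1 point per library and a bar at the mean of 3. The 4 genes on the left passed the adjusted threshold, and for all 9 genes the KO points lie wholly above or wholly below the WT points.

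The side of chromosome 9 that holds *Ncam1* was described apart, since the deletion was carried by crossing mouse lines and 3 of the 4 genes lie there. Within 10 Mb of *Ncam1* 138 genes were tested, of which 3 passed the adjusted threshold and 12 (8.70%) had an unadjusted p-value under 0.05, 5 higher and 7 lower in KO. On the rest of chromosome 9 the share at an unadjusted p-value under 0.05 was 6.45% of 481 genes, and over all genes outside the window it was 5.07%. The median of the absolute log2 fold change was 0.194 within the window, 0.196 on the rest of chromosome 9 and 0.199 over all genes outside the window, so it was not raised there. *Plet1os* was 0.690 Mb from *Ncam1*, *Tmprss13* 4.16 Mb and *Scn4b* 4.35 Mb. Without KO VM replicate 1, 13 genes of the window had an unadjusted p-value under 0.05, 4 higher and 9 lower, and with any 1 library left out the count ran from 11 to 16. Which segment of chromosome 9 in the KO mice came from the founder line cannot be told apart from the deletion with these libraries.

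Further genes of this window had smaller differences that did not pass the adjusted threshold. *Dixdc1*, which encodes a DIX-domain protein of Wnt signalling 0.864 Mb from *Ncam1*, had 32.8, 74.4 and 115 normalized counts in WT VMs and 12.7, 11.6 and 17.4 in KO VMs. The log2 fold change was -2.40 (SE 0.42) and the adjusted p-value 0.0535 (edgeR, adjusted over all genes), so it lay just outside the threshold that *Nedd1* met. It passed under 6 of the 17 alternatives. *Cryab*, the small heat shock protein αB-crystallin, had 6317, 4563 and 3117 normalized counts in WT VMs and 2834, 2817 and 2740 in KO VMs (log2 fold change -0.73, adjusted p = 0.499 in edgeR). *Pts*, an enzyme of tetrahydrobiopterin synthesis, had a log2 fold change of -1.42 and *Hyou1*, a chaperone of the endoplasmic reticulum, one of 1.02, with adjusted p-values of 0.578 and 0.615. *Pts* overlapped between genotypes, and *Hyou1* did not.

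**Figure D4:**
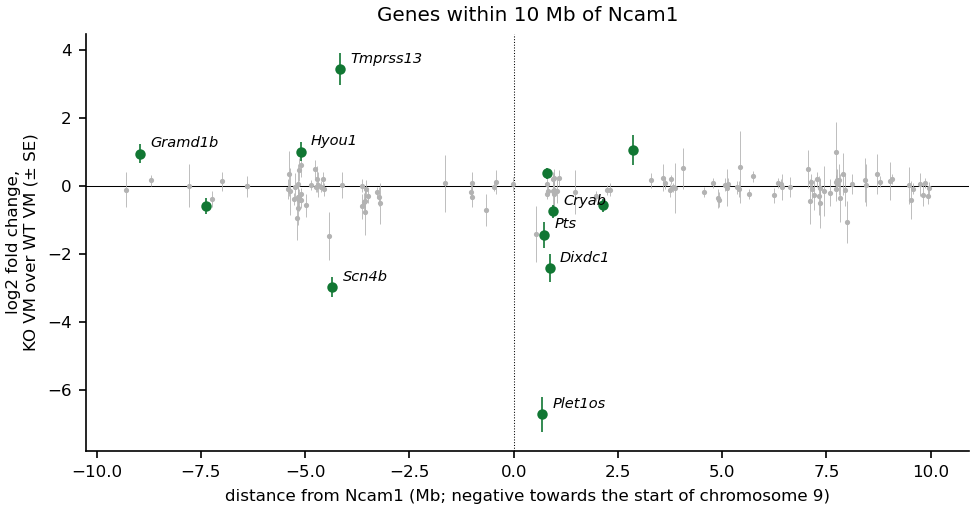
Log2 fold change (KO VM over WT VM, bars ± SE) of the 138 genes tested within 10 Mb of *Ncam1* against their distance from it, negative towards the start of chromosome 9. Green points are the 12 genes with an unadjusted p-value under 0.05. They lie on both sides of *Ncam1*, and most of the other genes lie near 0.

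Markers of PCs were higher in KO VMs in sum. The summed normalized count of the 10 Purkinje markers was 125, 98.8 and 121 in WT VMs 1 to 3 and 173, 159 and 214 in KO VMs 1 to 3, and for 9 of the 10 it was 101, 87.5 and 113 against 129, 121 and 133. Both sums were higher in every KO library than in every WT library, and in WT PCs the sum of the 10 was 938 to 2898. Of the 6 Purkinje markers tested, 5 were higher (3 without KO VM replicate 1), and 3 of them were so at an unadjusted p-value under 0.05 with or without KO VM replicate 1, among them *Irx3* and *Cacna1g*. *Pcp4* was at 0 in all 6 VM libraries, *Cntn2* lay between 2.22 and 3.77 normalized counts in WT and between 2.83 and 8.99 in KO, and *Gja5* between 1.88 and 8.14 in WT and between 1.28 and 4.63 in KO. The part of PCs in the VM fractions in these values was not tested.

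Other genes of smallest p-value belong to blood, vessel wall or membrane trafficking. *Rab6b*, a small GTPase of Golgi transport on chromosome 9, had 4.69, 6.59 and 4.44 normalized counts in WT VMs and 24.04, 26.97 and 40.5 in KO VMs, a log2 fold change of 2.54 (adjusted p = 0.0782). *Myh11*, the myosin heavy chain of smooth muscle, had 87.2, 71.5 and 58.4 in WT VMs and 4.24, 32.1 and 20.8 in KO VMs, a log2 fold change of -1.88 (adjusted p = 0.177). *Hbb-bs*, a β-globin gene of red blood cells, had 117, 58.4 and 2.96 in WT VMs and 1.41, 0 and 0 in KO VMs. The KO libraries lay below the WT libraries for *Myh11* and *Hbb-bs* and above them for *Rab6b*, and all 3 adjusted p-values missed the threshold (0.105 for *Hbb-bs*).

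The markers of smooth muscle and red blood cells are given beside *Myh11* and *Hbb-bs*. Of 10 smooth muscle and pericyte markers 8 were tested, and *Myh11* and *Pdgfrb* were lower at an unadjusted p-value under 0.05. *Abcc9*, which myocytes also express, made up most of that sum, and without *Abcc9* and *Myh11* the sum was 896, 414 and 764 in WT VMs and 249, 666 and 393 in KO VMs, which overlapped. The 6 erythroid markers summed to 141, 77.2 and 8.14 in WT VMs and 1.41, 2.57 and 9.26 in KO VMs, which overlapped, and *Hbb-bs* made up most of the sum in WT VMs 1 and 2. The part of smooth muscle and red blood cells in these genes was not tested. The processed pseudogene *Rps13-ps1* had 128.5, 1.88 and 110.2 normalized counts in WT VMs and 1.41, 1.28 and 4.63 in KO VMs. It overlapped between genotypes because of 1 WT library, and reads of near-identical copies can be split between them in counting.

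Further genes of smallest p-value on the higher side were *Lama5*, *Sdc2*, *Prlr*, *Maob*, *Tcp11l2*, *Gm13212* and the processed pseudogene *Gm14165*. *Lama5*, a laminin chain of basement membranes, had 162, 87.5 and 126 normalized counts in WT VMs and 332, 209 and 207 in KO VMs (log2 fold change 0.999, adjusted p = 0.318 in edgeR). *Maob*, the monoamine oxidase B of the outer mitochondrial membrane, had 198, 200.5 and 177 in WT VMs and 299.8, 304 and 272 in KO VMs (0.61, adjusted p = 0.502). The libraries of both genes did not overlap between genotypes. The log2 fold change was 0.98 for *Sdc2*, the proteoglycan syndecan-2, 0.74 for *Prlr*, the prolactin receptor, 0.56 for *Tcp11l2*, 1.29 for *Gm13212* and 1.25 for *Gm14165*, with adjusted p-values from 0.177 to 0.554 (edgeR, adjusted over all genes). On the lower side, *Gm43359* and *Gm43360* lie on the strand and within the bounds of *Atp2a2* and *Gm38357* within those of *Noct*, and all 3 are described with the TEC class at the end.

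The genes were then read by class, from 31 hand-written lists of myocyte and stress functions, each described by its counts and its median log2 fold change. Over all 10852 genes 48.9% were higher in KO, the median log2 fold change was -0.01 and 5.11% had an unadjusted p-value under 0.05. Of the 31 classes 22 had a median above 0, and without KO VM replicate 1 this was 16. *Scn4b* was the 1 class member that passed the adjusted threshold.

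**Figure D5:**
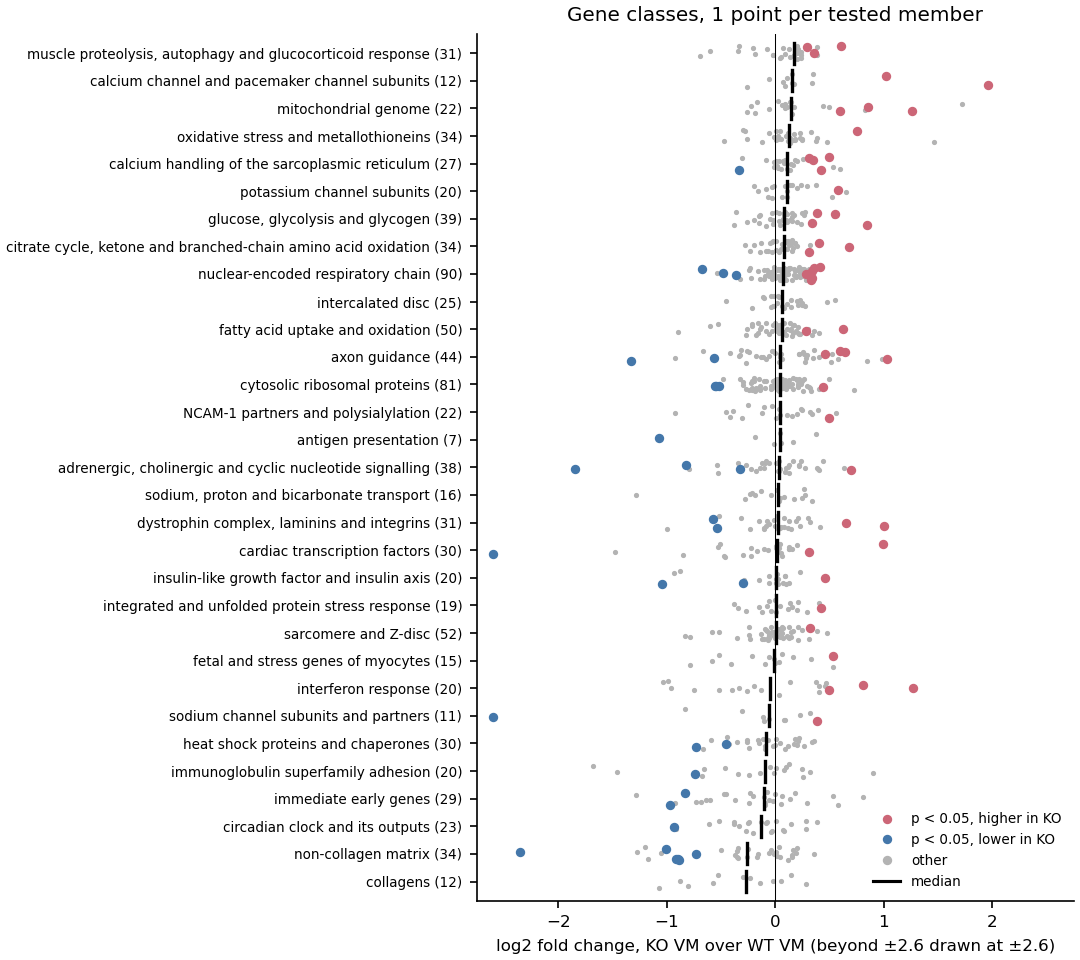
Log2 fold change (KO VM over WT VM) of every tested member of 31 gene classes, 1 point per gene, with the number tested in parentheses and a bar at the median. Coloured points have an unadjusted p-value under 0.05, and 2 members beyond ±2.6 are drawn at the edge. The medians lie between -0.27 for collagens and 0.17 for the class of muscle proteolysis, autophagy and glucocorticoid response, and within each class most members lie near 0.

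Genes of calcium handling by the sarcoplasmic reticulum were mostly higher in KO VMs by small amounts. Of 27 tested, 22 were higher, the median log2 fold change was 0.11, and 5 had an unadjusted p-value under 0.05, 4 higher and 1 lower (18.5% of the class, against 5.11% of all genes). *Atp2a2*, the calcium pump SERCA2 that refills the reticulum, had 55755, 56280 and 54708 normalized counts in WT VMs 1 to 3 and 81305, 70350 and 69971 in KO VMs 1 to 3. *Ryr2*, the calcium release channel, had 20582, 17997 and 16466 in WT VMs and 22195, 21267 and 33700 in KO VMs. Both genes were higher in every KO library, with log2 fold changes of 0.42 (SE 0.12) and 0.49 (SE 0.16) and adjusted p-values of 0.668 and 0.848 (edgeR, adjusted over all genes).

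*Casq2*, the calcium buffer calsequestrin 2, and *Hrc*, the histidine-rich calcium-binding protein, had log2 fold changes of 0.35 and 0.31, and their libraries overlapped. *Camk2d*, the main cardiac calmodulin-dependent kinase gene, was the lower one, at 1534, 1529 and 1412 in WT VMs and 1052, 1229 and 1241 in KO VMs (log2 fold change -0.34, adjusted p = 0.928). *Pln*, which encodes the SERCA2 inhibitor phospholamban, had a log2 fold change of 0.14 and *Slc8a1*, the sodium-calcium exchanger, one of 0.09, and the libraries of both overlapped. When KO VM replicate 1 was left out, 19 of the 27 were higher and *Atp2a2*, *Ryr2* and *Casq2* kept an unadjusted p-value under 0.05. Cardiomyocyte markers, of which *Ryr2* is one, were higher for 7 of 8, and their part in these values was not tested.

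Of the 11 genes tested for sodium channel subunits and their partners, 5 were higher and 6 lower, with a median of -0.05. An unadjusted p-value under 0.05 was reached by 2 of them (18.2%), 1 on each side, and *Scn4b* was the lower one. Leaving out KO VM replicate 1 gave a median of -0.15 with *Scn4b* alone under that p-value. *Scn4a*, the skeletal muscle pore subunit, *Ank2* and *Ank3*, the ankyrins that anchor channels, and the channel modulator *Fgf13* had log2 fold changes from -0.11 to 0.23.

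Calcium and pacemaker channel genes gave 12 tested members, 10 of them higher, with a median of 0.15. An unadjusted p-value under 0.05 was reached by 2 of the higher ones (16.7% of the class), also without KO VM replicate 1. *Cacna1g*, a T-type calcium channel, was among them. *Cacna1g* had 12.2, 15.1 and 15.5 normalized counts in WT VMs and 18.4, 34.7 and 33.6 in KO VMs. *Cacna1c*, the pore subunit of the L-type channel, had a log2 fold change of 0.10 and *Hcn4* one of 0.16, and the libraries of both overlapped. Of 20 potassium channel genes 13 were higher and 1, *Kcnj3*, had an unadjusted p-value under 0.05 (5% of the class, near the 5.11% of all genes). *Kcnj3*, a subunit of the acetylcholine-activated channel, had 535, 620 and 471 in WT VMs and 960.3, 751 and 706 in KO VMs (log2 fold change 0.58, SE 0.16, adjusted p = 0.593), and the class had 12 of 20 higher with *Kcnj3* again the 1 gene without KO VM replicate 1.

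Of 90 nuclear-encoded genes of the respiratory chain 61 were higher (67.8%), the median was 0.07, and 9 (10%) had an unadjusted p-value under 0.05. Among the 6 higher ones were *Cox6c*, *Cyc1*, *Uqcrq*, *Ndufc2* and *Cox7a1*, with log2 fold changes from 0.33 to 0.41. The 3 lower ones were *Atp5mpl*, *Ndufaf1* and *Cox6a2*, from -0.67 to -0.36. When KO VM replicate 1 was left out, 51 of the 90 were higher, the median was 0.01, and *Cox6c* was the 1 of the 6 higher genes that kept an unadjusted p-value under 0.05.

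Fatty acid uptake and oxidation gave 33 of 50 genes higher and a median of 0.06, and glucose, glycolysis and glycogen 27 of 39 and 0.08. *Lpl*, the lipoprotein lipase, had 31525, 27591 and 28211 normalized counts in WT VMs and 39912, 32656 and 33405 in KO VMs (log2 fold change 0.29, SE 0.12). *Etfb*, which passes electrons from fatty acid oxidation to the respiratory chain, had a log2 fold change of 0.63. *Slc2a4*, the insulin-responsive glucose transporter GLUT4, *Hk1*, hexokinase 1, *Ldhd* and *Pygb* were higher at an unadjusted p-value under 0.05 (10.3% of the class). None of the 39 genes of glucose metabolism had such a p-value without KO VM replicate 1. The class of fatty acid oxidation had 25 of 50 genes higher and a median of -0.00052 when KO VM replicate 1 was left out, with *Etfb* alone at an unadjusted p-value under 0.05. The citrate cycle class had 23 of 34 genes higher, with *Bdh1*, the ketone body enzyme, at 0.68, *Idh3g* at 0.41 and *Dlst* at 0.31, and without KO VM replicate 1 it had 18 of 34 higher, a median of 0.02, and *Bdh1* and *Dlst* under that p-value. Of 22 genes of the mitochondrial genome 17 were higher with a median of 0.14. The 3 with an unadjusted p-value under 0.05 (13.6%) were the transfer RNA genes *mt-Tl1*, *mt-Tf* and *mt-Tm*, at 11.1 to 205 normalized counts per library. None of the 22 was so without KO VM replicate 1, where 20 were higher.

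Muscle proteolysis, autophagy and glucocorticoid response had the highest class median. Of 31 tested, 22 were higher, the median was 0.17, and *Klf15*, *Fbxo32* and *Trim63* (9.68% of the class) had an unadjusted p-value under 0.05. *Klf15*, a transcription factor induced by glucocorticoids, had 127, 85.6 and 106 normalized counts in WT VMs and 175, 141 and 164 in KO VMs (log2 fold change 0.60, SE 0.20). *Trim63* and *Fbxo32*, the muscle ubiquitin ligases MuRF1 and atrogin-1, had log2 fold changes of 0.29 and 0.36. Other glucocorticoid-responsive members had the opposite sign, with -0.60 for *Pdk4*, -0.69 for *Zbtb16* and -0.34 for *Tsc22d3*, none under an unadjusted p-value of 0.05. *Zbtb16* lies 0.666 Mb from *Ncam1*, within the window of chromosome 9 described above. With KO VM replicate 1 left out, the class median was 0.03 with 16 of 31 higher.

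Heat shock proteins and chaperones were lower in 18 of 30 cases (median -0.08). An unadjusted p-value under 0.05 was reached by 2 small heat shock protein genes, *Cryab* and *Hspb8*. They were 6.67% of the class, near the 5.11% of all genes. *Hspb8* had 1614, 1386 and 1372 normalized counts in WT VMs and 1075, 1041 and 1056 in KO VMs (log2 fold change -0.46, SE 0.13, adjusted p = 0.692). The groups did not overlap, and both genes kept an unadjusted p-value under 0.05 without KO VM replicate 1. Of 29 immediate early genes, which respond to cell dissociation, 21 were lower (median -0.11), with *Klf10* at -0.97 and *Ier5* at -0.83. Both had an unadjusted p-value under 0.05, 6.90% of the class. Of 23 clock genes and clock outputs 16 were lower (median -0.13), with *Nfil3* at -0.93. *Nfil3* was the 1 gene of its class under that p-value, 4.35% of the class. None of the immediate early and clock genes had an unadjusted p-value under 0.05 without KO VM replicate 1. The sign of these medians rested on single libraries. Without WT VM replicate 3 the median of the immediate early genes was 0.15 and that of the clock genes 0.26. The median of the heat shock class was 0.04 without KO VM replicate 3 and 0.05 without WT VM replicate 1.

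Of 34 genes of oxidative stress and metallothioneins 27 were higher (median 0.12), with *Gstm2*, a glutathione transferase, at 0.75 and an unadjusted p-value of 0.0137. Leaving out KO VM replicate 1 brought the class to 20 of 34 higher and a median of 0.01, and *Gstm2* to 0.49 with an unadjusted p-value of 0.104, while *Hmox1*, heme oxygenase 1, was the 1 gene under 0.05. The unfolded protein and integrated stress response had 10 of 19 genes higher and a median of 0.01, with *Calr*, calreticulin, at 0.42, and 7 of 19 higher, a median of -0.06 and none under an unadjusted p-value of 0.05 without KO VM replicate 1. Of 81 cytosolic ribosomal protein genes 49 were higher with a median of 0.04. At an unadjusted p-value under 0.05 *Rpl30* was higher and 3 were lower, *Rps4x* and *Rplp0* among them, and 4.94% of the class was so, against 5.11% of all genes. The direction of this class turned when KO VM replicate 1 was left out, with 31 of 81 higher, a median of -0.08, and 0 higher and 7 lower at an unadjusted p-value under 0.05 (8.64%). With any 1 library left out the number under 0.05 ran from 3 to 12.

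Of 52 sarcomere and Z-disc genes 27 were higher, and the median was 0.01. *Tnnt2*, cardiac troponin T, was the 1 gene with an unadjusted p-value under 0.05 (1.92% of the class). *Tnnt2* had 19218, 20279 and 18094 normalized counts in WT VMs and 30134, 22705 and 18824 in KO VMs. Its libraries overlapped. Leaving out KO VM replicate 1 gave 24 of 52 higher, and at an unadjusted p-value under 0.05 then lay 5 lower genes (9.62%), *Acta1*, *Myh7*, *Myl4*, *Myl7* and *Tpm2*, and not *Tnnt2*. Fetal and stress genes of myocytes had 6 of 15 higher. *Ccn2*, a secreted matrix protein of fibrotic stress, was at 0.54 and was the 1 gene under an unadjusted p-value of 0.05 (6.67%). The natriuretic peptide gene *Nppb* was at -0.10 and the β-myosin heavy chain *Myh7* at -0.06. *Myh7* had 308, 271 and 542 normalized counts in WT VMs and 588, 238 and 249 in KO VMs, so its value depended on KO VM replicate 1. Its highest WT value was that of WT VM replicate 3. Without that library 5 of the 15 fetal and stress genes (33.3%) were under an unadjusted p-value of 0.05, *Ccn2* higher and *Acta1*, *Myh7*, *Myl4* and *Myl7* lower, and the median was -0.11. *Myl4* and *Myl7* are also atrial markers. The atrial sum was 384.5, 73.4 and 113 in WT VMs 1 to 3 and 258.8, 70.6 and 40.5 in KO VMs 1 to 3. The fit without KO VM replicate 1 thus kept WT VM replicate 1, the library with the highest atrial sum. The part of atrial cells was not tested.

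Genes of adhesion, the closest in function to NCAM-1, had members on both sides. Of 22 genes for NCAM-1 partners and polysialylation 13 were higher (median 0.04), and 1 had an unadjusted p-value under 0.05 (4.55%, near the 5.11% of all genes), on the higher side. *Fgfr1* and *Fyn* had log2 fold changes of 0.34 and -0.03, with unadjusted p-values of 0.399 and 0.918, and the polysialyltransferase *St8sia4* one of -0.39 with 0.383. Without KO VM replicate 1, 14 of the 22 were higher and none had an unadjusted p-value under 0.05. Of 20 other immunoglobulin superfamily adhesion genes 8 were higher (median -0.10), and *Nectin2* had an unadjusted p-value of 0.0489 with a log2 fold change of -0.74, whereas *F11r*, a junctional adhesion molecule, was the 1 gene under 0.05, and lower, without KO VM replicate 1. The intercalated disc class had 16 of 25 higher, a median of 0.07 and no gene at an unadjusted p-value under 0.05, and *Dsp*, desmoplakin, had a log2 fold change of 0.20; without KO VM replicate 1 it was 15 of 25 and again none.

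In the class of the dystrophin complex, laminins and integrins, 17 of 31 genes were higher (median 0.02). At an unadjusted p-value under 0.05 (12.9% of the class) *Lama5* and *Itgb5* were higher and *Lama4* and *Itga1* lower. *Lama4*, a laminin chain of vessel basement membranes, had 115, 108 and 106 normalized counts in WT VMs and 53.7, 80.9 and 90.3 in KO VMs. Of these 4 genes *Lama5* alone kept an unadjusted p-value under 0.05 when KO VM replicate 1 was left out. Axon guidance, the class that holds the receptors and ligands by which neurons find their paths, had 26 of 44 genes higher and a median of 0.05. *Efnb3*, *Epha4*, *Ntn1* and *Sema3a* were higher and *Plxna2* and *Cdk5* lower at an unadjusted p-value under 0.05, 13.6% of the class. *Sema3a*, a repellent guidance cue, had 10.3, 10.4 and 9.61 normalized counts in WT VMs and 22.6, 21.8 and 17.4 in KO VMs. *Plxna2*, a semaphorin receptor, had 306, 194 and 216 in WT VMs and 191, 162 and 129.7 in KO VMs, and neither gene overlapped between genotypes. When KO VM replicate 1 was left out, *Epha4*, *Plxna2* and *Cdk5* kept an unadjusted p-value under 0.05.

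Adrenergic, cholinergic and cyclic nucleotide signalling had 21 of 38 genes higher (median 0.03). *Grk5*, a kinase that desensitises β-adrenergic receptors, was at 0.70, and *Rgs2*, a regulator of G protein signalling, had 231, 395 and 406 normalized counts in WT VMs and 156, 211 and 213 in KO VMs. The *Rgs2* libraries did not overlap, with a log2 fold change of -0.83 (SE 0.21) and an adjusted p-value of 0.499 (edgeR, adjusted over all genes). The phosphodiesterase genes *Pde5a* and *Pde1c* were at -1.85 and -0.33. The value of *Pde5a* rested on few reads, with raw counts of 9, 9 and 16 in WT VMs and 2, 3 and 1 in KO VMs. In this class 4 genes (10.5%, against 5.11% of all genes) had an unadjusted p-value under 0.05, 1 higher and 3 lower. *Grk5*, *Rgs2* and *Pde5a* were the genes of the class under an unadjusted p-value of 0.05 without KO VM replicate 1, with 20 of 38 higher. The insulin axis had 12 of 20 genes higher and a median of 0.01. An unadjusted p-value under 0.05 was reached by 3 of them (15%), 1 higher and 2 lower. *Mtor* was at 0.46 and *Igf1* at -1.04, both without overlap between genotypes. Without KO VM replicate 1, 10 of 20 were higher and *Mtor* alone was under that p-value.

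Of 30 cardiac transcription factors 17 were higher (median 0.01), and without KO VM replicate 1, 13 were (median -0.06). *Hopx*, a homeodomain-only protein, had 903, 923 and 927 normalized counts in WT VMs and 1136, 1070 and 1205 in KO VMs (log2 fold change 0.32, SE 0.13). *Irx3*, a factor of the conduction system, had 10.3, 12.2 and 17.01 in WT VMs and 24.04, 19.3 and 35.9 in KO VMs (0.99, SE 0.41). The libraries of *Hopx* and of *Irx3* did not overlap between genotypes. The value of the atrial gene *Bmp10* (-4.88) rested on WT VM replicate 1, which held 49.7 normalized counts against 0 to 1.28 in the other 5 libraries, and without that library it was 2.09. That library also had the highest sum of atrial markers, 384.5 against 40.5 to 259 in the others.

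Matrix genes were the classes with the lowest medians. Of 34 non-collagen matrix genes 23 were lower, with a median of -0.26, and 6 had an unadjusted p-value under 0.05, all lower (17.6% of the class, against 2.93% of all genes lower). *Mmp2*, a matrix metalloproteinase, had 17.8, 8.47 and 8.13 normalized counts in WT VMs and 1.41, 2.57 and 2.32 in KO VMs, without overlap. *Mgp*, the matrix Gla protein, had 91.0, 42.4 and 45.9 in WT VMs and 18.4, 36.0 and 40.5 in KO VMs. *Adamts1*, *Bgn*, *Nid1* and *Timp3* had log2 fold changes from -1.01 to -0.74. All 12 collagen genes tested had an unadjusted p-value of 0.05 or above, 9 were lower and the median was -0.27, with *Col4a1* at -0.14 and *Col4a2* at -0.02.

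These matrix values depended on KO VM replicate 1 and WT VM replicate 1, which also held the lowest and the highest sums of fibroblast and endothelial markers. Of 8 fibroblast markers tested 7 were lower and of 12 endothelial markers all 12, with *Kdr* and *Egfl7* under an unadjusted p-value of 0.05. The fibroblast sum was 535.5, 322 and 297 in WT VMs 1 to 3 and 94.8, 433 and 343 in KO VMs 1 to 3, and the endothelial sum 946, 478 and 558 against 156, 605 and 525, so both overlapped between genotypes. Without KO VM replicate 1 the non-collagen matrix class had a median of -0.13 with *Adamts1* and *Mmp2* at an unadjusted p-value under 0.05, and without WT VM replicate 1 it was 0.03. The collagen median was -0.16 and 0.08 in the same fits. The part of fibroblasts and endothelial cells in these values was not tested.

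Interferon-response genes were split evenly, 10 of 20 higher (12 without KO VM replicate 1). *Igtp*, *Iigp1* and *Ifi35* were higher at an unadjusted p-value under 0.05 (15% of the class). *Igtp*, an interferon-inducible GTPase, had 22.5, 22.6 and 25.1 normalized counts in WT VMs and 41.0, 26.97 and 54.4 in KO VMs. Of 7 antigen presentation genes *H2-T24* had an unadjusted p-value under 0.05 (14.3% of the class), at 30.9, 33.9 and 29.6 against 9.90, 21.8 and 12.7. Sodium, proton and bicarbonate transport had 9 of 16 genes higher, a median of 0.03 and no unadjusted p-value under 0.05, and without KO VM replicate 1, 5 of 16 higher, a median of -0.04 and 1 lower gene under that p-value.

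A group that stood out after the values were seen was an annotation class and not a pathway. GENCODE marks as TEC loci whose transcripts still await experimental testing. Of 182 TEC genes tested 147 were lower in KO VMs, the median log2 fold change was -0.54, and 31 were lower and 1 higher at an unadjusted p-value under 0.05 (17.03% lower, against 2.93% of all genes). *Gm43359*, within *Atp2a2*, had 188, 139 and 115 normalized counts in WT VMs 1 to 3 and 36.8, 68.1 and 72.9 in KO VMs 1 to 3 (log2 fold change -1.29), *Gm43360*, also within *Atp2a2*, had one of -1.37, and *Gm38357*, within *Noct*, one of -2.17. *Atp2a2* itself was higher, as given above. Of the 182, 137 lay within a protein-coding gene, and the 91 such genes that were tested had a median log2 fold change of -0.01.

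Reads outside annotated genes are given beside the TEC genes. As a share of the reads counted in genes plus those outside them, they amounted to 3.61, 2.26 and 2.06% in WT VMs 1 to 3 and to 1.81, 2.11 and 1.85% in KO VMs 1 to 3. TEC genes took 0.254, 0.169 and 0.159% of the counts outside the mitochondrial genome in WT VMs and 0.111, 0.145 and 0.152% in KO VMs. KO lay below WT in all pairs for TEC genes, and for reads outside genes KO VM replicate 2 was above WT VM replicate 3, with WT VM replicate 1 the highest in both measures. Set against counts outside the mitochondrial genome, reads outside genes had ratios of 0.2647, 0.1788 and 0.1574 in WT VMs. The ratios in KO VMs were 0.1295, 0.1567 and 0.1594, so the genotypes overlapped here too. Without KO VM replicate 1, 17 TEC genes were lower and 3 higher at an unadjusted p-value under 0.05, with a median of -0.46. With any 1 library left out the TEC median ran from -0.78 to -0.32 and the number at an unadjusted p-value under 0.05 from 15 to 39. In PCs the median of the 158 TEC genes tested was 0.01, and 3 were lower at an unadjusted p-value under 0.05. The part of reads outside genes in the TEC values was not tested.

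The PC libraries were not used in the VM comparison and gave the same genes a separate measurement. In PCs 0 of 11615 genes passed the adjusted threshold and 372 (3.2%) had an unadjusted p-value under 0.05 (edgeR's quasi-likelihood test), with a biological coefficient of variation of 0.481 against 0.190 in VMs. WT PC replicate 2 stood apart: 63.9% of its file's total was not aligned, against 21.1 and 21.2% in WT PCs 1 and 3. It also had the fewest genes with counts of the series, 11847. The part of this library in the spread of the PCs was not tested. *Scn4b* had 104, 64.4 and 101 normalized counts in WT PCs and 21.1, 15.2 and 11.4 in KO PCs, and *Tmprss13* 1.31, 3.90 and 2.89 against 31.6, 31.6 and 40.8. *Plet1os* had 67.6, 519 and 113 in WT PCs and 0 in all 3 KO PCs, and *Nedd1* 169.6, 99.5 and 131 against 28.1, 88.4 and 45.4. All 4 genes were on the same side in PCs as in VMs without overlap between genotypes.

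*Dixdc1* and *Rab6b*, the next genes by p-value, were on the same side as well. Later genes did not all follow, with *Gm43360* at -1.37 in VMs and 0.16 in PCs. In PCs the log2 fold change of *Dixdc1* was -1.69 and that of *Rab6b* 2.43. Of the 544 genes with an unadjusted p-value under 0.05 in VMs that were tested in PCs, 318 (58.5%) had the same sign there, against 52.2% of the 10588 genes tested in both. Of the 544, 32 (5.88%) also had an unadjusted p-value under 0.05 in PCs with the same sign, against 1.56% of the 10588. The comparisons share no library, but VMs and PCs may come from the same hearts.

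Whether the genotype difference itself differed between cell types was tested as an interaction over all 12 libraries. No gene of 11323 passed the adjusted threshold in edgeR's quasi-likelihood test, and 329 (2.91%) had an unadjusted p-value under 0.05. For *Scn4b* the VM difference minus the PC difference was -0.40 on the log2 scale (adjusted p = 0.998). Among the named genes *Hopx* had the smallest unadjusted p-value of the interaction, 0.00227, with a log2 fold change of 0.32 in VMs and -0.79 in PCs. With 3 libraries per group and the spread of the PC libraries, a p-value that misses the threshold does not show that the cell types responded alike.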

How the data were processed

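RNA-seq was performed on sorted VMs and PCs of both genotypes. The deposited values are raw read counts per gene, which the authors made by aligning reads to mm10 with STAR and counting them with HTSeq. The submitters' processing notes also name CASAVA, Picard, bedtools, DESeq2 and R 3.3.0. Strand use in counting is not given in the sources used here. The rows that name no gene held 40.3 to 45.0% of each VM file's total and were dropped. Of 48526 identifiers 382 were not in GENCODE M21, whose names and GRCm38 positions were used, and these held 0.00511% of the counts.

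Counts were normalized by TMM and genes with a mean above 5 normalized counts were tested by genotype in the 6 VM libraries with edgeR 4.0.16 (glmQLFit, glmQLFTest, R 4.3.3), adjusting by Benjamini-Hochberg across every gene tested, with a threshold of 0.05. All adjusted p-values in the text are from edgeR unless another tool is named. The interaction of genotype and cell type was fitted over all 12 libraries. DESeq2 1.42.0 and limma 3.58.1 served as alternatives, beside other filters, scalings, a replicate block and leaving out each library. No pair of replicates was a duplicate, since chi-square over degrees of freedom was 7.03 or more for every pair. The method was tested on simulated data for KO VM against WT VM over 10780 genes. The changed genes were drawn from the more abundant genes only, so the shares called do not hold for genes near a mean of 5. At a dispersion of 0.04 it called 69% of genes changed by 1 on the log2 scale and 100% of those changed by 2, with 7.14% of calls false, and at a dispersion of 0.2 it called 3% and 50%.

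The members, gene classes and marker lists were chosen with earlier results of these data known. Named genes were *Ncam1*, those past the adjusted threshold, the 10 higher and 10 lower with the smallest p-values, up to 4 members per class with the smallest unadjusted p-value under 0.05, or the 2 of highest mean in a class with none, and marker genes. The TEC class and the genes *Abcc9*, *Acta1*, *Ank2*, *Ank3*, *Cacna1c*, *Cdk5*, *Cox6a2*, *Cox7a1*, *F11r*, *Fgf13*, *Fgfr1*, *Fyn*, *Hmox1*, *Hrc*, *Hyou1*, *Myh7*, *Ndufc2*, *Nid1*, *Noct*, *Nppb*, *Pdk4*, *Plet1*, *Pts*, *Scn4a*, *Sema3a*, *Slc8a1*, *St8sia4*, *Timp3*, *Tpm2*, *Tsc22d3*, *Uqcrq* and *Zbtb16* were chosen after their values were seen. Some genes that the rule names are not reported here.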

Additional observations from a re-analysis of the deposited data

How the results depend on the processing

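The number of genes past the adjusted threshold, 4 with edgeR, was 10 with the DESeq2 Wald test, 47 with no filter on low counts (where 972 genes had an unadjusted p-value under 0.05 and the median log2 fold change of all genes was -0.08) and 1, *Scn4b*, when all 12 libraries were fitted together (where 151 genes had an unadjusted p-value under 0.05). It ran from 2 without KO VM replicate 2 to 10 without WT VM replicate 1, and the unadjusted count from 427 to 728. Replicate numbers of the titles did not pair the VM libraries: same-numbered deviations correlated at -0.04, -0.01 and 0.07 over 7836 genes. The source names number WT VM replicates 2 and 3 as 3 and 4, and by those numbers the 2 shared pairs correlated at -0.04 and -0.12. With the replicate block by title number 7 genes passed, also with a length and GC correction. Between cell types, and within each genotype, every VM library correlated best with the PC library of its own number, at 0.05 to 0.25. For KO VM replicate 1 this was nearly a tie, at 0.059 with KO PC replicate 1 and 0.047 with KO PC replicate 3. PC libraries of the other genotype were not compared. This is a hint from the data and not the design. With DESeq2 size factors, filterByExpr and the replicate block in edgeR 0 genes passed the adjusted threshold for the interaction, and the count for the genotype by cell type interaction, unadjusted p under 0.05, was 338, 308 and 282.

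Of the 92 named genes tested, 86 had an unadjusted p-value under 0.05, against 40 with all 12 libraries and 53 to 73 with 1 library left out, lowest without KO VM replicate 1. The log2 fold change changed sign for 3 of them when 1 library was left out. *Bmp10* ran from -7.04 to 2.09 (without WT VM replicate 1), *Col4a1* from -0.23 to 0.077 (without WT VM replicate 1), and *Col4a2* from -0.26 to 0.14 (without KO VM replicate 1), with 0.02 without KO VM replicate 3 and 0.09 without WT VM replicate 1. The cause of these differences was not tested. With counts thinned to the smallest library 3 genes passed the adjusted threshold and 531 had an unadjusted p-value under 0.05.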
